A study of Mus musculus with 1 sample.

Results

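The HSP90 and HSP70 chaperones described here are 10 genes, Hsp90aa1, Hsp90ab1, Hsp90b1, Hspa1a, Hspa1b, Hspa2, Hspa4l, Hspa5, Hspa8 and Hspa9, of the 27998 genes counted. They were chosen by symbol, with earlier results of these data known, so that their levels are given as a description and carry no test. All values come from 1 single-cell RNA-seq library of testis cells from wild-type (Zscan2+/+) C57BL/6 mice at postnatal day 8. Spermatogonia had been enriched with magnetic beads against the surface protein THY1. Equal numbers of these enriched cells from each of 3 mice were combined in 1 tube. A few unselected testis cells were added back, and their share by mouse is not stated. The pooling leaves no spread between animals, and the bead selection and the added cells set the shares of cell types. The matching Zscan2-KO library was not analysed here.

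Chaperones hold unfolded or immature proteins and use ATP to help them reach their active form. HSP70 proteins bind short exposed stretches of a client, assisted by J proteins that load them and by nucleotide exchange factors that release them, and HSP90 proteins take over many of those clients, such as kinases and steroid receptors, at a later step. Each family has a constant and a stress-inducible form in the cytosol (Hspa8 and Hsp90ab1 against Hspa1a, Hspa1b and Hsp90aa1) and a form in the endoplasmic reticulum (Hspa5 and Hsp90b1). In mitochondria the HSP70 form is Hspa9, and the HSP90 form, Trap1, is not one of the chosen genes. The testis has forms of its own: HSPA2 is an HSP70 of spermatocytes that mice need for male meiosis, HSPA4L is an HSP110-type exchange factor abundant in male germ cells, and male mice without HSP90AA1 are infertile.

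After removal of 10 barcodes under 500 genes, 36 with at least 10% mitochondrial transcripts and 4 called doublets, 920 of 970 barcodes remained. The library held 11358045 unique molecular identifiers (UMIs, each standing for 1 captured transcript), 2655 to 44915 per barcode. Clusters were named from fixed marker lists and called "-like". The 324 germ cells, 35.2% of those kept, comprised 107 SSC-like cells (spermatogonial stem cells), 81 progenitor-like cells and 136 differentiating-like cells. The last were 2 clusters, 1 of 104 cells led by Kit and 1 of 32 cells led by Prss50, Ly6k and Esx1, called the Kit-led and the Ly6k-led cells below. Clustered with all cells, germ cells had fallen into clusters of 188, 74 (led by Prss50, Ly6k and Esx1) and 62 cells (led by Rhox10, Luzp4 and Ccnb1). At resolution 1.2 germ clusters of 47 cells with Kit and 54 with Rhox10 among the leading genes stood apart. The Kit-led cells may thus hold more than 1 kind of cell, which limits every ratio to them. The 596 somatic cells comprised 255 Sertoli-like, 186 stromal-like, 94 peritubular myoid-like and 35 macrophage-like cells, and a cluster of 26 cells. The marker lists named that cluster T cell. The name was set aside because its leading genes (Xcl1, Gzmc, Klrd1 and Cd3g beside Rgs5 and Higd1b) mark several cell types. The progenitor-like cluster had Neurog3 among its 10 leading genes, together with the stress-response gene Ddit4 and hemoglobin genes, and 1 barcode held 3604 of the 3703 Hba-a1 UMIs of all germ cells. Germ cells were deeper (median 18217 UMIs) than somatic cells (median 8194).

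Levels are UMIs of a class scaled to a total of 1000000 (CPM) with exact 95% Poisson intervals, and ratios have exact 95% conditional binomial intervals. Both cover counting error only, since 1 library gives no replicate. A 3′ UMI is counted once for a transcript whatever its length, so levels of different genes are compared here as counted molecules. Hspa8 has an added limit, because 32 of 41 windows of 100 bases over the last 500 bases of its longest coding transcript also occurred in a transcript of another annotated gene, all of them unnamed gene models (Gm7899 and others), whereas no such window of the other 9 members did. Reads from that end of Hspa8 cannot all be assigned by sequence, and the effect on its count was not tested.

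Among the 6 members with a promoter in the RefSeq table (GRCm38.p6), those of the inducible HSP70 genes and of the endoplasmic reticulum pair held matches to patterns of known stress elements. They are printed because the results on inducible genes and on the Ly6k-led cells turn on these 4 members. Hspa1a (chromosome 17, 34969190 to 34972156, minus strand, GRCm38) and Hspa1b (chromosome 17, 34956436 to 34959238, minus strand) are neighbouring protein-coding genes with 1 annotated transcript each. The 250 bases before the start of each are given 5′ to 3′, with the match to the searched heat shock element pattern in capitals.
Hspa1a, chr17:34972157-34972406, minus strand: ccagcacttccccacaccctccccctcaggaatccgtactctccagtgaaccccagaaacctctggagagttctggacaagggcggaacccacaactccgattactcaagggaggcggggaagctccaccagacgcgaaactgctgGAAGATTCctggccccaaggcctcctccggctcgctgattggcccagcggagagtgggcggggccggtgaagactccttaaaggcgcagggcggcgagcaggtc
Hspa1b, chr17:34959239-34959488, minus strand: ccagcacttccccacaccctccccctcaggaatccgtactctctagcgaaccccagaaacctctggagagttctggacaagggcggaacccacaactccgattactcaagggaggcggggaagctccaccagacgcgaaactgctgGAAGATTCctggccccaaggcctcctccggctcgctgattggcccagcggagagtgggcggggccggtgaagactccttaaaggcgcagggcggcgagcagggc
These upstream sequences differed at 3 of 250 bases. The element was searched as GAANNTTC or TTCNNGAA, each of which reads the same on both strands, and occurred in 12.8% of the 32851 promoters of the table and, of the 6 members with a promoter, only in these 2. Only this short pattern was searched and marked, so other parts of a heat shock element may stand in lower case. Hsp90aa1, Hsp90ab1, Hspa8 and Hspa9 had no promoter in the table and were not searched.
The endoplasmic reticulum stress element, searched on both strands as CCAAT and CCACG spaced by 9 bases, was found in 0.113% of all promoters and in those of Hspa5 (chromosome 2, 34771970 to 34777547, plus strand) and Hsp90b1 (chromosome 10, 86690209 to 86705509, minus strand), at 2 positions in the latter. Each is shown with 5 flanking bases. Promoters are placed by the RefSeq start, and the Hspa5 element, which begins 65 bases before it, lies inside the Hspa5 gene as GENCODE draws it from its earliest annotated transcript.
Hspa5, chr2:34772020-34772048, plus strand: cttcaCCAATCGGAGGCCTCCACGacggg
Hsp90b1, first element, chr10:86705633-86705661, minus strand: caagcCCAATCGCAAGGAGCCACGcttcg
Hsp90b1, second element, chr10:86705528-86705556, minus strand: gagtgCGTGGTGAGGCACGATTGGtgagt
The second Hsp90b1 element lies on the opposite strand. Of 15 further endoplasmic reticulum genes on the fixed list that have a promoter in the table, 5 (Calr, Canx, Pdia6, Dnajc3 and Creld2) held the element. A match of letters is a description and not a bound site.

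Hsp90aa1, the inducible cytosolic HSP90, was the member that separated germ from somatic cells most widely in the upward direction. Its level was 1815 CPM among SSC-like, 1336 CPM among progenitor-like, 1976 CPM among Kit-led and 1556 CPM among Ly6k-led cells. In somatic cells it was 409 CPM among Sertoli-like, 275 CPM among stromal-like, 199.9 CPM among peritubular myoid-like and 203 CPM among macrophage-like cells. Every germ class stood above every somatic class, and no intervals overlapped between the 2 sets. The pooled germ level was 5.37-fold the somatic level (95% interval 5.10 to 5.66, from 9487 and 1704 UMIs). Somatic cells held it at 0.186 times its germ level, whereas 6 germ cell markers, which somatic cells should lack, stood in somatic cells at a median of 0.0241 times their germ level (0.0186 to 0.0978). The same 6 markers were used to name the germ clusters, and the part of free RNA in the somatic level was not tested.

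Hsp90ab1, the constant cytosolic HSP90 and the most abundant member in 8 of the 9 classes and clusters, varied much less. It stood at 2197 CPM among SSC-like, 2301 CPM among progenitor-like, 2440.4 CPM among Kit-led and 1686 CPM among Ly6k-led cells. The somatic levels were 1780 CPM among Sertoli-like, 1433 CPM among stromal-like, 1279 CPM among peritubular myoid-like and 878 CPM among macrophage-like cells. The Ly6k-led and Sertoli-like intervals met, so germ and somatic classes were not separated for this gene. Germ over somatic was 1.49-fold (1.45 to 1.53).

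As a result the mix of the 2 cytosolic HSP90 genes differed by lineage. Hsp90aa1 made up 43.2% of their UMIs in germ cells (95% binomial interval 42.6 to 43.9%) and 17.4% in somatic cells (16.7 to 18.2%). Within germ cells the share was lowest in progenitor-like cells (36.7%) and 45.2% in SSC-like, 44.7% in Kit-led and 48.0% in Ly6k-led cells. Within somatic cells it ran from 13.5% in peritubular myoid-like to 18.8% in macrophage-like cells, and 21.2% in the 26-cell cluster. The Sertoli-like clusters themselves differed, from 15.7% (14.3 to 17.2%) in the largest, of 133 cells, to 25.1% (22.4 to 27.9%) in the smallest, of 43 cells, whose leading genes included the mitotic genes Psrc1 and Cdc25b. Summed over both genes the level was 3952 CPM among germ and 1824 CPM among somatic cells.

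**Figure D1:**
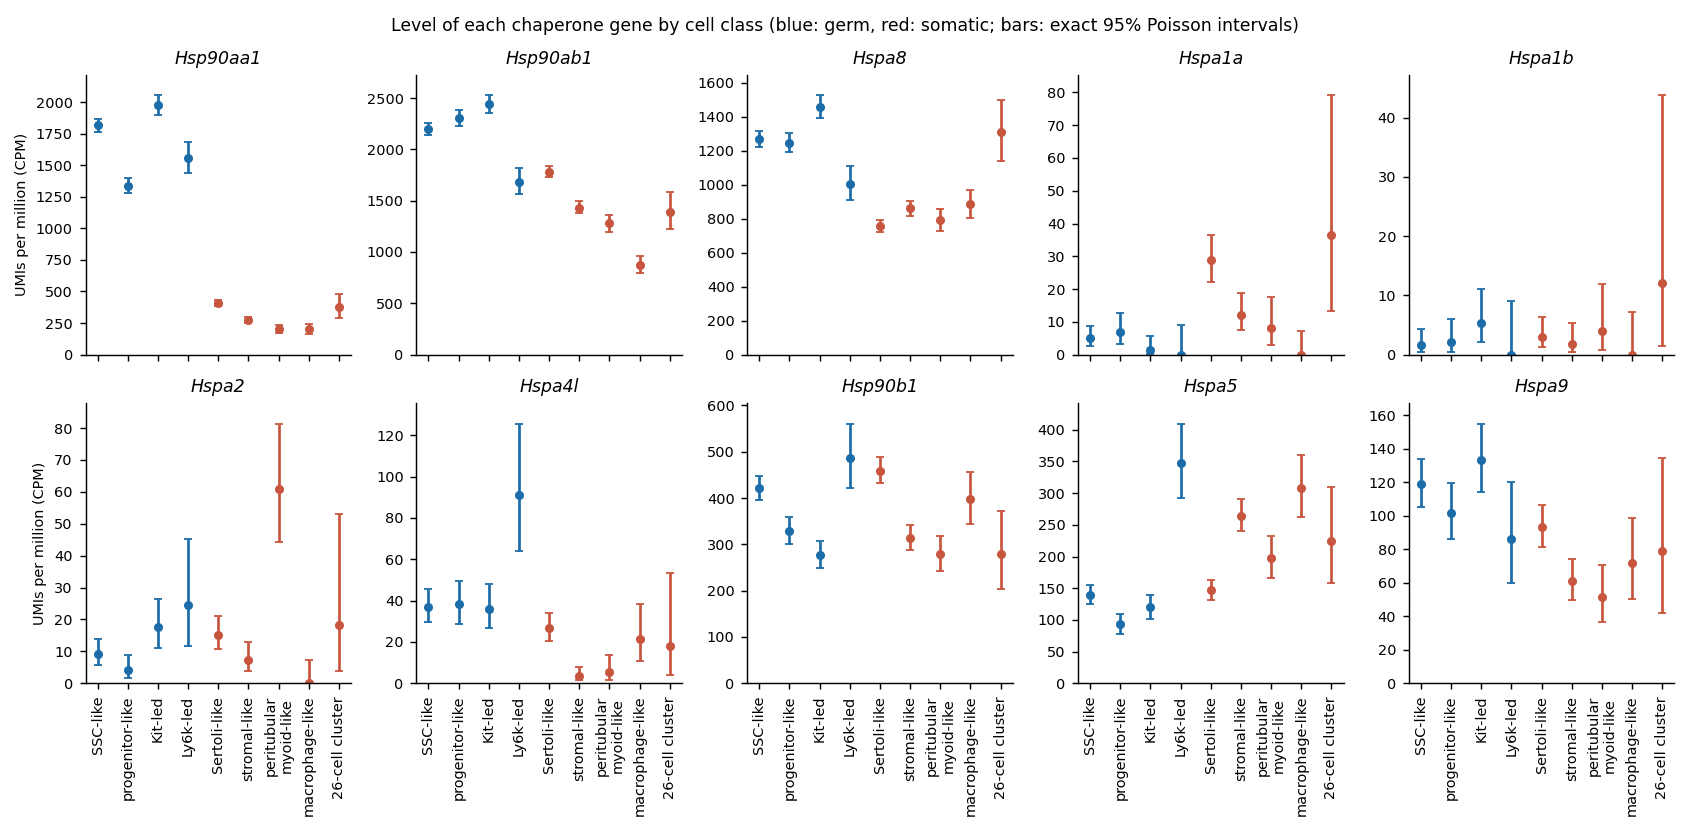
Level of each of the 10 genes (CPM, linear axes from 0) in 4 germ (blue) and 5 somatic (red) classes or clusters, with exact 95% Poisson intervals. Hsp90aa1 is above 1300 in each germ class and at or below 409 in each somatic one, whereas Hsp90ab1 and Hspa8 stay within a narrower band.

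Hspa8, the constant cytosolic HSP70 (HSC70), stood at 1268 CPM among SSC-like, 1246 CPM among progenitor-like, 1458 CPM among Kit-led and 1004 CPM among Ly6k-led cells. Its somatic levels were 754 CPM among Sertoli-like, 859 CPM among stromal-like, 789 CPM among peritubular myoid-like and 884 CPM among macrophage-like cells. The 26-cell cluster, at 1309 CPM, reached the germ level, and the Ly6k-led and macrophage-like intervals overlapped. Germ over somatic was 1.57-fold (1.51 to 1.63).

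Hspa1a and Hspa1b, the inducible HSP70 genes, were rare beside it. Hspa1a stood at 28.7 CPM among Sertoli-like (66 UMIs), 12.2 CPM among stromal-like (20 UMIs) and 8.10 CPM among peritubular myoid-like cells (6 UMIs). It was at 5.04 CPM among SSC-like (12 UMIs), 6.83 CPM among progenitor-like (10 UMIs) and 1.53 CPM among Kit-led cells (2 UMIs). Neither the 35 macrophage-like nor the 32 Ly6k-led cells held a UMI, and the floor of 3 counts was 5.81 and 7.39 CPM there, so that a level such as that of SSC-like cells could not have been told from 0. In the 26-cell cluster all 6 of its UMIs came from 1 cell, which also held both Hspa1b UMIs of that cluster.

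Germ cells held Hspa1a at 4.32 CPM and somatic cells at 18.3 CPM, which made germ cells 4.23-fold lower (2.69 to 6.92, from 24 and 98 UMIs). Against Sertoli-like cells alone they were 6.65-fold lower (4.11 to 11.1). Sertoli-like cells in turn stood 2.75-fold above all other somatic cells (1.78 to 4.34), and their 3 clusters lay at 23.7, 41.1 and 22.2 CPM with overlapping intervals. In germ cells the gene was at 0.150 times its Sertoli-like level, and 8 Sertoli markers were in germ cells at a median of 0.0107 times theirs (0 to 0.0150). Those markers were also used to name the Sertoli-like clusters, and the part of free RNA in germ cells was not tested. Without the tenth of cells of each class that held most of Hspa1a and Hspa1b, under 100 Hspa1a UMIs were left and the gene could not be compared. Germ cells were the deeper cells: after thinning to 5000 UMIs a cell (45 germ and 48 somatic cells were shallower and left out), 2.15% of germ cells, 8.21% of somatic cells and 15.7% of Sertoli-like cells kept a Hspa1a UMI, against 6.17%, 12.8% and 21.2% before.

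Hspa1b had 14 UMIs in germ and 15 in somatic cells (2.52 and 2.80 CPM), and its levels of 1.68 to 5.37 CPM among the named classes and clusters with a UMI had overlapping intervals, as did the 12.1 CPM (1.47 to 43.8) of the 26-cell cluster. Hspa1b could not be told apart by class at this depth. Even in Sertoli-like cells Hspa1a gave 3.66% of the summed UMIs of Hspa8, Hspa1a and Hspa1b (2.84 to 4.63%), and in germ cells 0.334% (0.214 to 0.496%), with nearly all others from Hspa8. Hspa2 was not part of that sum.

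**Figure D2:**
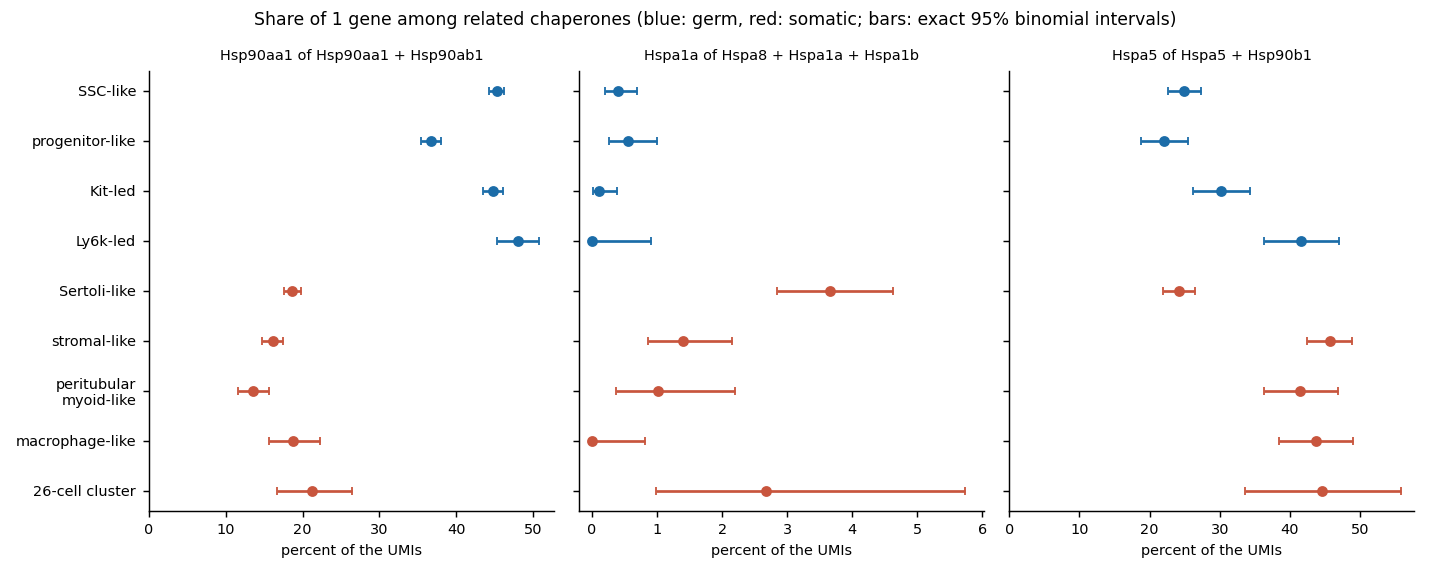
Share of Hsp90aa1 among cytosolic HSP90, of Hspa1a among Hspa8, Hspa1a and Hspa1b, and of Hspa5 among the endoplasmic reticulum pair (percent of UMIs, exact 95% binomial intervals) in germ (blue) and somatic (red) classes or clusters. Hsp90aa1 takes 36.7 to 48.0% in germ classes and 13.5 to 21.2% in somatic ones, and Hspa1a is highest in Sertoli-like cells at 3.66%.

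Because Hspa1a and Hspa1b can be induced while a tissue is taken apart, 16 immediate early genes known to respond to dissociation were summed beside them. Those genes stood at 310.2 CPM among germ cells and 1978 CPM among somatic cells. By class they were at 383 CPM among SSC-like, 333 CPM among progenitor-like, 191 CPM among Kit-led and 179.7 CPM among Ly6k-led cells, and at 1860.0 CPM among Sertoli-like, 1516 CPM among stromal-like, 3417 CPM among peritubular myoid-like and 2244 CPM among macrophage-like cells. The sum of the 2 HSP70 genes was also lower in germ cells (6.84 CPM against 21.1 CPM). That difference came from Hspa1a, as Hspa1b stood at 2.52 and 2.80 CPM. Among somatic cells the order of the 2 sums differed: the 2 HSP70 genes summed to 31.8 CPM among Sertoli-like cells, 12.2 CPM among peritubular myoid-like cells, where the immediate early genes were highest, and 0 in macrophage-like cells. Of the 15 immediate early genes with at least 100 UMIs in germ and somatic cells together, 12 were at least 2-fold lower in germ cells, where 24.6% of all genes compared were. Among them were Fosb (119.7-fold), Fos (30.8-fold), Junb (20.2-fold) and Jun (19.9-fold). None of the 15 was 2-fold higher.

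Cells of a class were also split at the median share of immediate early UMIs. In Sertoli-like cells the upper and lower sets differed in those genes (2707 and 907 CPM), while Hspa1a in the upper set was 0.836 times that in the lower (0.499 to 1.40, from 32 and 34 UMIs). In germ cells (449 and 145 CPM) Hsp90aa1 in the upper set was 0.936 times that in the lower (0.899 to 0.975). In stromal-like cells (2676 and 414 CPM) Hsp90aa1 was 0.573 times (0.470 to 0.698) and Hspa5 0.579 times (0.473 to 0.708) as high in the upper set. In peritubular myoid-like cells (5396 and 1569 CPM) Hsp90aa1 was 0.424 times as high in the upper set (0.290 to 0.612). In Sertoli-like cells Hsp90aa1 was 0.980 times as high in the upper set (0.860 to 1.12). Hspa1a and Hspa1b were too rare for the split to show a modest rise. The upper and lower sets held 11 and 13 Hspa1a UMIs in germ cells, and 9 and 11 in stromal-like cells. They held 2 and 4 in peritubular myoid-like cells. Hspa1b had 6 and 8 UMIs in germ cells, and 2 and 1 in stromal-like cells (interval 0.110 to 124). Hsp90b1 was higher by an interval that left out 1 in Sertoli-like cells (1.14 times, 1.01 to 1.29) and, at 1.10 times, in germ cells, and Hspa8, at 1.06 times, in germ cells. In stromal-like cells both were lower in the upper set (Hsp90b1 0.783 times, 0.654 to 0.935, and Hspa8 0.807 times, 0.725 to 0.897), and Hspa8 was 0.882 times as high in Sertoli-like cells (0.802 to 0.970). Other members were lower in the upper set of germ cells by intervals that left out 1. These were Hspa5 (0.815 times, 0.705 to 0.941), Hsp90ab1 (0.960 times, 0.927 to 0.995) and Hspa2 (0.582 times, 0.335 to 0.997, from 25 and 36 UMIs). Hspa4l had 0 and 6 UMIs in stromal-like cells (interval 0 to 0.894). Median depth of the upper and lower sets was 8313 and 8373 UMIs in Sertoli-like cells and 19491 and 17108 UMIs in germ cells, and the germ split pooled stages whose immediate early levels differed. The Sertoli-like split pooled clusters of 133, 79 and 43 cells, with immediate early levels of 1600, 1928 and 2410 CPM. Stromal cells formed clusters of 127 and 59 cells at resolution 1.2, and the stromal-like split did not tell such subtypes apart. The split was made after classes were fixed, on other genes than the members. The part of dissociation in any member's level was not tested.

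**Figure D3:**
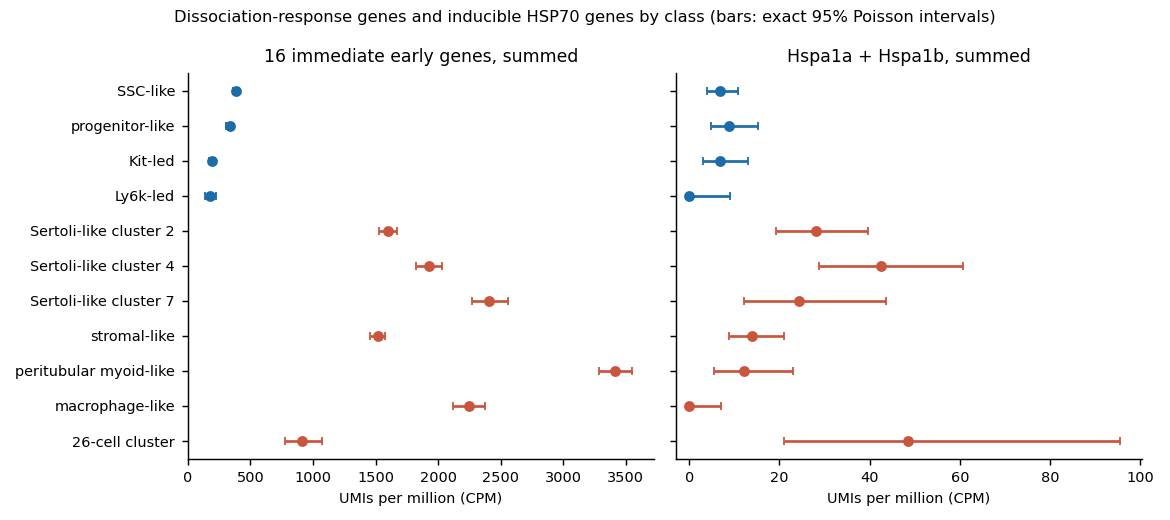
Summed level of 16 immediate early genes (left) and of Hspa1a and Hspa1b (right), in CPM with exact 95% Poisson intervals, in germ (blue) and somatic (red) classes with the 3 Sertoli-like clusters apart. The left values are highest in peritubular myoid-like cells (3417), whereas the right values there (12.2) are below those of the Sertoli-like clusters.

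Hspa2 and Hspa4l, the HSP70 relatives known from spermatocytes and spermatids, were both low at this age. Hspa2 was highest outside the germ line, at 60.8 CPM among peritubular myoid-like cells (45 UMIs, 44.3 to 81.3). In germ cells it was at 9.24 CPM among SSC-like (22 UMIs), 4.10 CPM among progenitor-like (6 UMIs), 17.6 CPM among Kit-led (23 UMIs) and 24.6 CPM among Ly6k-led cells (10 UMIs). Sertoli-like cells held 15.2 CPM, stromal-like cells 7.31 CPM, and macrophage-like cells no UMI, with a floor of 5.81 CPM. Only the peritubular myoid-like interval lay apart from all those of named classes other than the Ly6k-led cells, and this class stood 5.61-fold above the other somatic cells (3.67 to 8.57). After thinning to 5000 UMIs, 23.3% of peritubular myoid-like cells and 5.73% of germ cells held a Hspa2 UMI.

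Hspa4l was spread through the germ line at 37.0 CPM among SSC-like, 38.3 CPM among progenitor-like and 36.0 CPM among Kit-led cells, and reached 91.1 CPM (64.1 to 125.6) in Ly6k-led cells. Of the somatic classes Sertoli-like cells held 26.6 CPM and macrophage-like cells 21.3 CPM, against 3.65 CPM among stromal-like (6 UMIs) and 5.40 CPM among peritubular myoid-like cells (4 UMIs). The Sertoli-like interval overlapped those of the 3 lower germ clusters. Germ over somatic was 2.59-fold (2.01 to 3.36, from 228 and 85 UMIs), and Ly6k-led over Kit-led was 2.53-fold (1.60 to 3.97, from 37 and 47 UMIs). Hspa1l, an HSP70 gene of spermatids on the fixed lists, had 3 UMIs in germ and 4 in somatic cells.

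Of the members with at least 100 UMIs in differentiating-like cells, the endoplasmic reticulum pair was higher in Ly6k-led than in Kit-led cells by its intervals, as was the cytosolic Hspa4l on fewer UMIs. Hspa5 (BiP), the HSP70 of that compartment, was at 139 CPM among SSC-like, 92.9 CPM among progenitor-like and 119.6 CPM among Kit-led cells, and at 347 CPM among Ly6k-led cells. Somatic levels were 146 CPM among Sertoli-like, 197 CPM among peritubular myoid-like, 264 CPM among stromal-like and 308 CPM among macrophage-like cells. The Ly6k-led cells therefore stood above the other germ clusters and overlapped macrophage-like cells only among the named classes. Their level was 2.90-fold the Kit-led one (2.29 to 3.67, from 141 and 156 UMIs). All 32 Ly6k-led cells held a UMI against 54.8% of Kit-led cells, or 90.3% against 37.1% after thinning. The Kit-led cells were shallower (median 8736 against 12208 UMIs), and thinning left out 34 of 104 of them and 1 of 32 Ly6k-led cells. Hsp90b1 (GRP94), the HSP90 of the compartment, was at 422 CPM among SSC-like, 329 CPM among progenitor-like, 277 CPM among Kit-led and 487 CPM among Ly6k-led cells. Its somatic levels ran from 278 CPM among peritubular myoid-like to 459 CPM among Sertoli-like cells, and germ over somatic was 0.973-fold (0.914 to 1.03). Ly6k-led over Kit-led was 1.76-fold for Hsp90b1, a log2 ratio of 0.82 (0.56 to 1.07). Hspa5 gave 22.0 to 30.2% of the pair's UMIs in the SSC-like, progenitor-like and Kit-led cells and 24.2% in Sertoli-like cells, and 41.5 to 45.7% in Ly6k-led, peritubular myoid-like, macrophage-like and stromal-like cells.

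Hspa9, the mitochondrial HSP70 (mortalin), had a narrow range at a lower level than the cytosolic constant genes. It stood at 119 CPM among SSC-like, 102 CPM among progenitor-like, 133 CPM among Kit-led and 86.2 CPM among Ly6k-led cells, and at 93.2 CPM among Sertoli-like, 60.9 CPM among stromal-like, 51.3 CPM among peritubular myoid-like and 71.7 CPM among macrophage-like cells. Germ over somatic was 1.54-fold (1.36 to 1.75), and the progenitor-like, Ly6k-led and Sertoli-like intervals overlapped.

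Counted over the members, 9 of 10 had at least 100 UMIs in germ and somatic cells together, and Hspa1b did not. Of these 9, Hsp90aa1 and Hspa4l were at least 2-fold higher in germ cells, where 23.6% of all 9073 genes compared were, and Hspa1a was at least 2-fold lower, where 24.6% were. The other 6, Hsp90ab1, Hsp90b1, Hspa2, Hspa5, Hspa8 and Hspa9, were within 2-fold, and the median log2 ratio was 0.58 over the 9 members and 0.12 over all genes. At a mitochondrial limit of 5%, the ratios of Hspa8 and Hspa9 were also over 2-fold higher (log2 ratios 1.23 and 1.24) and those of Hspa5 and Hspa2 over 2-fold lower (-1.29 and -1.44). Not all of these ratios rest on at least 100 UMIs, since no alternative setting called more than 3 members higher or more than 1 lower. That limit compared other sets of cells, since it kept 67 germ cells. It also left a cluster of 122 cells unnamed and out of the somatic cells. Aqp2, Vcam1 and Prlr, which led the stromal-like cluster, were among the leading genes of those 122 cells. At the 10% limit the members' counts were close to the shares over all genes. Between the highest and the lowest of 7 named classes, 4 of 9 members (Hsp90aa1, Hspa1a, Hspa2 and Hspa4l) differed at least 4-fold, and 60.3% of 9009 genes did. The folds of the other 5 were 1.65 for Hsp90b1, 1.79 for Hspa8, 2.38 for Hspa9, 2.62 for Hsp90ab1 and 3.32 for Hspa5.

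**Figure D4:**
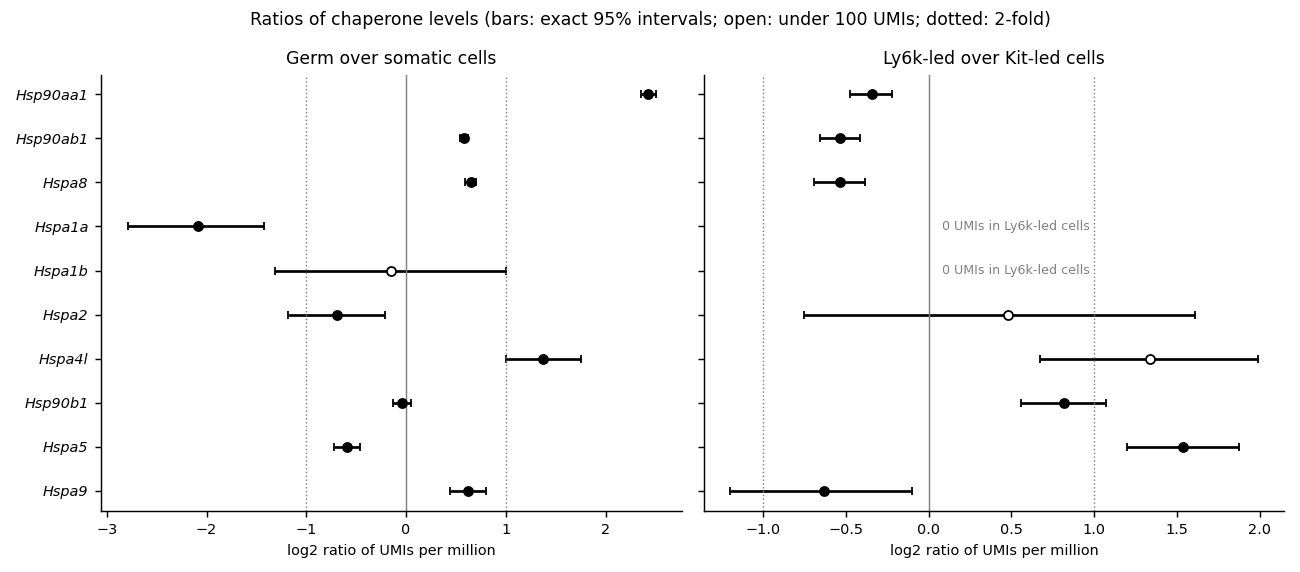
Log2 ratio of levels, germ over somatic cells (left) and Ly6k-led over Kit-led cells (right), with exact 95% intervals. Filled points rest on at least 100 UMIs, open points on fewer, dotted lines mark 2-fold, and a gene with 0 UMIs in Ly6k-led cells has no point. On the left Hsp90aa1 (2.43) and Hspa4l (1.37) are high and Hspa1a (-2.08) is low, and on the right Hspa5 (1.54) is highest.

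Between undifferentiated germ cells (SSC-like and progenitor-like together) and differentiating-like cells, none of the 7 members with enough UMIs differed 2-fold, where 5.76% of 6064 genes were at least 2-fold higher and 4.11% at least 2-fold lower in undifferentiated cells. Their log2 ratios ran from -0.51 for Hspa5 to 0.24 for Hsp90b1. Of the 3 members under 100 UMIs there, undifferentiated cells were lower in Hspa2 (2.65-fold, 1.55 to 4.55, from 28 and 33 UMIs) and held 22 Hspa1a UMIs against 2 (log2 ratio 2.29, 0.27 to 5.42). The counts of 0 among 7 members are read against those background shares and show nothing particular to the members. Between SSC-like and progenitor-like cells, none of the same 7 differed 2-fold, where 3.05% of 4750 genes were higher and 0.611% lower in SSC-like cells. The log2 ratios of Hspa5 (0.59, 0.29 to 0.88), Hsp90aa1 (0.44, 0.36 to 0.52) and Hsp90b1 (0.36, 0.20 to 0.52) were above 0 there by their intervals, which cover counting error only. Within differentiating-like cells, 1 of 6 members, Hspa5, was at least 2-fold higher in Ly6k-led cells, where 5.35% of 2634 genes were, and none was 2-fold lower, where 8.5% were. Hsp90aa1, Hsp90ab1, Hspa8 and Hspa9 were 1.27, 1.45, 1.45 and 1.55-fold lower there, with intervals below equality.

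Hspa5 was not alone on the endoplasmic reticulum side of this comparison. Of all genes compared there, 5.35% were at least 2-fold higher in Ly6k-led cells and 8.5% at least 2-fold lower. Of 18 further genes listed for that compartment and the unfolded protein response, 11 had at least 100 UMIs in the 2 clusters, 3 were at least 2-fold higher in Ly6k-led cells and none was 2-fold lower, with a median log2 ratio of 0.58 against -0.04 over all genes. The 3 were Sdf2l1, a BiP partner in the lumen (3.69-fold, 2.52 to 5.41), Creld2, an unfolded protein response target (2.33-fold, 1.81 to 3.01), and Pdia6, a disulfide isomerase (2.17-fold, 1.72 to 2.72). Dnajb11, a J protein for BiP, stood at 1.97-fold (1.43 to 2.68) and the lectin chaperone Calr at 1.89-fold (1.60 to 2.23). Among the other isomerases, Pdia3 was at 0.928-fold and P4hb at 1.01-fold. Ddit3, the stress-induced factor CHOP, and the sensor Atf6 had too few UMIs there to be compared. Of 10 meiotic entry genes 4 had enough UMIs in these cells, and 2 of them (Sycp1, 2.55-fold, and Smc1b, 2.29-fold) were at least 2-fold higher.

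**Figure D5:**
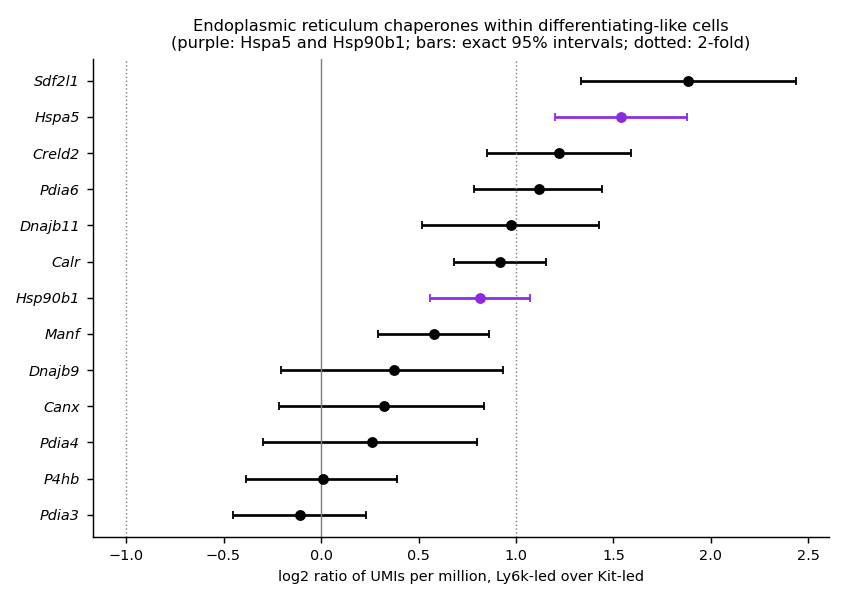
Log2 ratio of levels in Ly6k-led over Kit-led cells for Hspa5 and Hsp90b1 (purple) and the 11 endoplasmic reticulum list genes with at least 100 UMIs in these cells (black), with exact 95% intervals and dotted lines at 2-fold. Sdf2l1, Hspa5, Creld2 and Pdia6 lie beyond 2-fold, and Pdia3 and P4hb lie near 0.

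On the mitochondrial list, 5 of 7 genes had enough UMIs in that comparison, and none of the 5 was at least 2-fold higher, where 5.35% of all genes compared were. Of them Hspe1, the HSP10 partner of HSP60 (2.35-fold), and the protease Clpp (2.29-fold) were at least 2-fold lower in Ly6k-led cells, where 8.5% of all genes compared were. Hspd1, HSP60 itself, was at 0.999-fold. Dnaja3, not compared for its low count, stood at 49.2 and 24.5 CPM (20 and 32 UMIs). Between germ and somatic cells 2 of 7 were at least 2-fold higher in germ cells, where 23.6% of all genes compared were. They were Hscb, a J protein of iron-sulfur assembly (4.30-fold), and Hspe1 (3.16-fold), and the list median log2 ratio was 0.80. Hspe1 reached 1745 CPM among germ and 551 CPM among somatic cells.

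Partners of the cytosolic chaperones were described between germ and somatic cells from the same fixed lists, against a median log2 ratio of 0.12 over all genes. Of all 9073 genes compared, 23.6% were at least 2-fold higher in germ cells and 24.6% at least 2-fold lower. Of 8 further HSP70 family genes 5 had enough UMIs, and 4 were at least 2-fold higher in germ cells. These were the HSP110 genes Hspa4 (3.07-fold) and Hsph1 (2.81-fold), the endoplasmic reticulum gene Hyou1 (2.89-fold) and the ribosome-bound Hspa14 (2.80-fold), while Hspa13 was 2.73-fold lower. Of 12 J proteins of the cytosol 8 were compared, 4 were higher (Dnajc2, the partner of HSPA14 at the ribosome, 6.79-fold, Dnaja2 2.76-fold, Dnajb6 2.60-fold and Dnaja1 2.19-fold) and Dnajb2 was 3.44-fold lower. The 7 nucleotide exchange factors were mixed, with Bag4 2.56-fold higher and Bag2 (4.47-fold), Bag3 (3.04-fold) and Bag5 (2.31-fold) lower. Among 15 of 16 HSP90 co-chaperones, 3 were higher, the immunophilins Fkbp4 (4.10-fold) and Ppid (2.88-fold) and the HSP70 to HSP90 adaptor Stip1 (2.05-fold), and 2 were lower, Sugt1 (2.31-fold) and Fkbp5 (2.01-fold). The mitochondrial HSP90 gene Trap1 was 1.84-fold higher (1.49 to 2.29).

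The counts of the next lists between germ and somatic cells are read beside the shares over all 9073 genes compared. Those shares were 23.6% at least 2-fold higher in germ cells and 24.6% at least 2-fold lower. Of 5 genes on the heat shock factor list 3 had enough UMIs in germ and somatic cells, and those 3 were within 2-fold. Hsf1, the main activator of inducible chaperones, was at 30.1 CPM among germ and 17.9 CPM among somatic cells (1.68-fold, 1.30 to 2.18), Hsf2 at 16.6 and 8.96 CPM (1.85-fold, 1.29 to 2.68), and Hsbp1, an inhibitor of HSF1, 1.25-fold. Hsf4 and Hsf5 had 6 and 9 UMIs in germ cells and 2 each in somatic cells. Within differentiating-like cells Hsf1 was at 64.0 CPM among Ly6k-led and 27.6 CPM among Kit-led cells, on 26 and 36 UMIs. Of the 7 small heat shock protein genes, which encode ATP-independent holding chaperones, 2 had enough UMIs, and both, Cryab (22.6-fold) and Hspb1 (21.8-fold), were lower in germ cells. Among those not compared, Hspb9 had 24 UMIs in germ and 1 in somatic cells, and Hspb6 had 31 in each. Hspb1 reached 687 CPM among Sertoli-like and 197 CPM among peritubular myoid-like cells, and 15.1 CPM over all germ cells. Cryab stood at 102 CPM among stromal-like and 93.2 CPM among peritubular myoid-like cells and 5.66 CPM among Sertoli-like cells. On the endoplasmic reticulum list, 2 of 18 genes were higher in germ cells (Creld2, 4.73-fold, and Dnajb9, 2.45-fold) and 4 lower, among them Herpud1 (6.06-fold) and Xbp1 (2.67-fold). Of the partners known for HSPA2 in meiosis, Ccnb1 was 5.45-fold higher in germ cells, Cdk1 1.43-fold lower and Bag6 1.06-fold higher. All 7 meiotic entry genes compared were higher in germ cells, led by Sycp2, Smc1b and Stra8, of which Stra8 was also a marker used in naming the cells.

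Cells of 1 class also differed in how evenly they held a member. Over the variance that counting alone gives, Hspa8 in Kit-led cells varied 7.48-fold, Hsp90aa1 in SSC-like cells 5.37-fold and Hsp90b1 in Ly6k-led cells 4.53-fold, whereas Hspa9 stayed at 0.860 to 1.49-fold in the 9 classes and clusters. Kit-led cells may hold more than 1 kind of cell, and the part of that in their spread was not tested. Across 324 germ cells, after class means were subtracted, the highest correlations among members were Hsp90aa1 with Hsp90ab1 (Pearson r = 0.41) and with Hspa8 (r = 0.40), and Hsp90b1 with Hspa5 (r = 0.34). In 596 somatic cells r was 0.070 for Hsp90aa1 with Hsp90ab1, 0.27 for Hsp90aa1 with Hspa8 and 0.28 for Hsp90b1 with Hspa5. All these cells come from 1 library, so the values are descriptions. Somatic cells were shallower than germ cells and held less Hsp90aa1. Depth and level both affect r at such counts, and their part in the difference between germ and somatic values was not tested. Of 5868 genes found in at least 25% of germ cells, those most like Hspa5 were Uba1y (r = 0.35), Hsp90b1 (r = 0.34), the translocon subunit Sec61a1 (r = 0.31), the reticulum ribosome-binding protein Rrbp1 (r = 0.30) and Zcchc11 (r = 0.30). Only 20 germ cells held a Hspa1a UMI and 50 a Hspa2 UMI, and the genes most like them (Snrnp48, Slc25a51, Ccdc58, Utp23 and Cgrrf1 for Hspa1a, and Mettl13, Usp12, Mknk2, Cdc42 and Tfb2m for Hspa2) had r of 0.30 at most, which in counts so sparse shows no pattern.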

How the data were processed

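Per the labels and the methods, cells pooled from 3 mice were captured with 10x Chromium v2 chemistry, and the authors made the deposited counts (UMIs per gene and barcode, not normalized) with Cell Ranger 2.1.0 on mm10 (GRCm38). That step sets which reads of near-identical genes are counted. The members, lists and markers were chosen with earlier results of these data known, and no list or direction is independent support. Doublets were called with scrublet in scanpy 1.11.5 (expected rate 0.01, seed 0). Cells were clustered in Seurat 5.3.0 on log-normalized values (total 10000, 14 principal components, resolution 0.5), germ cells again on their own. The members and the chaperone and immediate early list genes were left out of the variable genes (15 in the first clustering), so that they did not define the classes. UMIs were then summed per class. With 1 library there is no test. Genes were compared where the cells held at least 100 UMIs, with a floor of 3 counts, and called at 2-fold between groups or 4-fold over 7 classes. The plan was to name up to 4 list genes with the widest germ to somatic ratio. In the HSP70 family, J protein and HSP90 co-chaperone lists all genes past 2-fold were named instead. Some genes with few UMIs, such as Hspb9, were named too, and those named in Ly6k-led cells were chosen after their values were seen. Fold calls and intervals were tested on simulated Poisson counts, the model that the intervals assume. That test does not cover the spread over cells beyond counting error. Positions are from GENCODE vM21 and promoters from RefSeq (GRCm38.p6), which matched 6 of 10 members.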

Additional observations from a re-analysis of the deposited data

How the results depend on the processing

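The member ratios and counts were recomputed under 15 alternatives, 13 fixed beforehand and 2 chosen after seeing the data (without the hemoglobin-rich barcode and without the 26-cell cluster). Of the counts of members past a fold, 86 stayed within 1.5 times the reported count and 1 moved: without the tenth of cells highest in Hspa1a and Hspa1b, 0 members were at least 2-fold lower in germ cells, since under 100 Hspa1a UMIs were then left. Of single-gene values, 253 stayed within their counting interval, 37 moved beyond it and 4 turned direction, counting only values whose reported interval left out 0. The 4 were the log2 ratio of undifferentiated over differentiating-like cells for Hspa8 (0.17 with no mitochondrial limit, 0.17 with 2000 variable genes by vst and 0.16 at resolution 1.2) and for Hsp90aa1 (0.041 at resolution 1.2). In each of these settings a cluster with Henmt1 among its leading genes was left unnamed and out of the comparison. It had 60 cells with no mitochondrial limit, 70 with 2000 variable genes and 54 at resolution 1.2. At resolution 1.2 a cluster of 84 cells with Neurog3 among its leading genes was also left out. The cells compared were thus other sets, and the cause of the turns was not tested. Other values changed sign from a reported interval that held 0, up to a log2 ratio of 0.081 for Hsp90ab1 and 0.065 for Hspa9 (undifferentiated over differentiating-like), and of 0.042 for Hsp90b1 and 0.0099 for Hspa1b (germ over somatic). Germ over somatic log2 ratios ran from 2.32 to 2.78 for Hsp90aa1, 1.07 to 1.62 for Hspa4l and -2.95 to -1.85 for Hspa1a, and the Hsp90aa1 share of cytosolic HSP90 from 41.7 to 45.6% in germ and 16.6 to 18.9% in somatic cells. A mitochondrial limit of 5% kept 442 cells, 67 of them germ cells, and left a cluster of 122 cells unnamed and out of the somatic cells. Germ over somatic log2 ratios were then 1.23 for Hspa8, 1.24 for Hspa9, 0.94 for Hsp90ab1, -0.66 for Hsp90b1, -1.29 for Hspa5 and -1.44 for Hspa2. Not all of them rest on at least 100 UMIs, and a count of members that stayed does not show which members were called. At resolution 0.3 and at a mitochondrial limit of 5% some germ classes had no named cluster and gave no value. The 3 UMI-poor members (Hspa1a, Hspa1b and Hspa2) are limited by depth, and 32 Ly6k-led cells by their number.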
